A study of Danio rerio with 27 samples.

Results

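The genes described here are the subunits of the heterotrimeric G proteins and the regulators of G-protein signalling (Rgs proteins) of the zebrafish. Members were taken by symbol: every gene whose symbol began with rgs and a digit, with gna, with gnb and a digit, or with gng and a digit. This gave 67 of the 32520 genes of the expression table, namely 26 Rgs genes, 23 G alpha genes, 8 G beta genes, 1 G beta-like gene (gnb1l) and 9 G gamma genes. The members were chosen by name, but the family itself was selected on a measured value: the TPM of rgs5a, already known to differ between mutants and siblings in both tissues. For that reason the mutant values of rgs5a are given as a description, without a test.

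The libraries were made from adult fish carrying 2 transgenes, spic:EGFP and mpeg1:DsRedx, and from cells sorted as EGFP-positive and DsRedx-negative, which the series names metaphocyte progenitors. Metaphocytes are cells of ectodermal origin in the skin and gill of the zebrafish that resemble macrophages, and the spic gene encodes a DNA-binding protein of the Ets family. Sorted cells came from spic mutants (7 libraries of epidermis, 8 of gill) and from fish labelled as siblings (7 of epidermis, 5 of gill), 27 libraries in all, with 30 cells each, amplified by the Smart-seq2 method over 23 PCR cycles. The comparison is between cells sorted by the same gate from spic mutants and from siblings, in each tissue. Whether these are the same kind of cell in both genotypes was not tested. All 4 groups carried both transgenes. The sources used here do not name the mutant alleles, nor the genotype of the siblings beyond that word. Because the sort gate rests on a reporter named for spic, the cells compared are those in which that reporter was on in each genotype. Whether each library was sorted from its own fish is not stated, and p-values therefore reflect only how far libraries scatter, which may be partly technical.

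A heterotrimeric G protein relays the signal of a receptor in the cell membrane. The activated receptor makes the G alpha subunit exchange GDP for GTP, after which G alpha and the G beta-gamma dimer act on separate effectors: G alpha s raises cyclic AMP, G alpha i lowers it, and G alpha q activates phospholipase C beta. Rgs proteins end the signal by speeding the hydrolysis of GTP on G alpha i and G alpha q. In mammals, RGS5 is known as a marker of pericytes and RGS13 is known from B cells and mast cells.

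The label of the cells was read against marker genes. Of 6 metaphocyte markers, epcam, an epithelial adhesion gene, stood at group means of 1875 to 3124 TPM and cldnh, a claudin of tight junctions, at 713 to 2324 TPM. In contrast, grn2, a granulin gene, averaged 1668 TPM in sibling and 20.1 in mutant epidermis, and 2500 and 23.2 in gill. The macrophage gene mpeg1.1 averaged 209.8 and 1.29 TPM in epidermis and 103.3 and 1.71 in gill, and cdh1 239 and 75.0 in epidermis and 271 and 428 in gill. TPM is a share of a library's transcripts scaled for gene length, so that levels of different genes can be set beside each other. The targeted gene, spic, stood at 638 ± 76.3 TPM in sibling epidermis (SD, n = 7) and 38.9 ± 40.5 in mutant epidermis (n = 7), and at 293 ± 132 in sibling gill (n = 5) and 18.8 ± 17.7 in mutant gill (n = 8), with no overlap between genotypes in either tissue. The myeloid genes csf1ra and ptprc were listed at 0 in every library. The summed TPM of 12 myeloid markers averaged 7546 in sibling epidermis (6218 to 9587) and 1649 in mutant epidermis (392 to 3139), and 5528 in sibling gill (3165 to 6820) and 2391 in mutant gill (1261 to 3984). Most of the mutant sum was cd74a: the other 11 summed to 3006 and 68.0 TPM in sibling and mutant epidermis and to 2387 and 156 in gill. The sum of 14 neuroendocrine and sensory markers moved the other way, from 66.1 (17.2 to 236) to 5269 (642 to 8467) in epidermis and from 552 (35.2 to 859) to 4799 (2487 to 6667) in gill. The largest part of the mutant sum was scgn, at means of 2771 TPM in epidermis and 2095 in gill (29.5 and 85.2 in siblings). The other genes also had higher means in mutants, except calb2a in gill (106 in siblings, 99.3 in mutants) and calb2b, listed at 0. The keratinocyte sum averaged 1405 and 6031 TPM in sibling and mutant epidermis, and 206 and 910 in sibling and mutant gill. Its genes did not move together in epidermis. There krt4, krt5, krt91 and ppl had higher means in mutants, with krt5 at 2588 ± 3160 TPM in mutant epidermis. In contrast, mean anxa1a went from 253 to 3.92 TPM, evpla from 28.4 to 3.05 and tp63 from 1.07 to 0.0254. The ionocyte sum was 122 to 218 TPM in sibling and 266 to 1638 in mutant epidermis, and 198 to 669 and 337 to 3948 in gill. Most of it in epidermis was atp1a1a.1, at means of 168 TPM in siblings and 718 in mutants. Genes at 1 TPM or more numbered 7688 to 9097 in sibling and 6469 to 8531 in mutant epidermis, and 8407 to 10655 and 6755 to 10633 in gill. These marker sums and gene counts stand beside every mutant result below, and their part in those results was not tested. In such libraries, fewer cells of a type and less RNA per cell cannot be told apart.

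Of the 67 members, 9 were listed at 0 in all 27 libraries: gnai3, gng3, gng8, rgs16, rgs3b, rgs7b, rgs7bpa, rgs7bpb and rgs9bp. Another 18 were present in some library but in too few to be tested. The remaining 40 members reached 1 TPM in at least 5 libraries and were tested with all 13465 such genes: 12 Rgs, 17 G alpha, 4 G beta and 7 G gamma genes. Just outside that limit, gnb5a and gnb1l reached 1 TPM in 4 libraries, with highest values of 42.9 and 56.9 TPM. Just inside it, rgs7a and rgs19 reached 1 TPM in 5 libraries, with highest values of 11.5 and 58.9 TPM. The members at 1 TPM or more in every library were 9: rgs13, rgs5a, gnai1, gnai2a, gnao1a, gna13a, gnb1a, gnb1b and gng5. The transducin genes of photoreceptors, gnat1 and gnat2, reached at most 0.181 and 0.137 TPM.

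**Figure D1:**
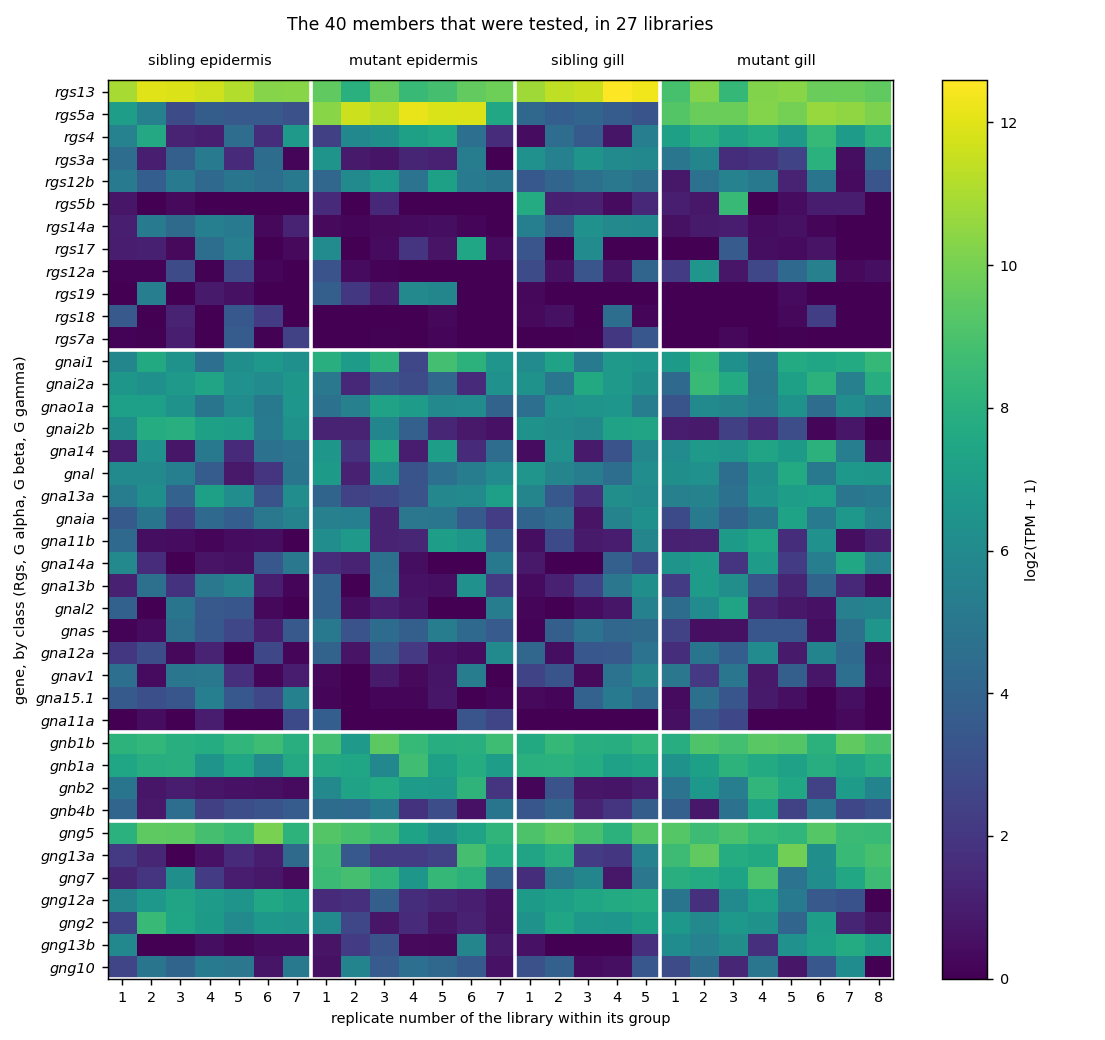
Level of the 40 tested members, as log2(TPM + 1), in each of the 27 libraries. Columns are libraries in their group with the replicate number, rows are genes ordered by class, and white lines part groups and classes; rgs13 and rgs5a are the brightest Rgs rows, the first in siblings and the second in mutants.

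Across the tested members, mutants and siblings differed in both tissues in both directions. In epidermis 12 of 40 members passed an adjusted p of 0.05 in limma, 5 of them higher and 7 lower in mutants, where 12.8% of all 13465 genes passed (4.13% higher and 8.69% lower). In gill 10 of 40 passed, 6 higher and 4 lower, where 6.21% of all genes passed (2.34% higher and 3.87% lower). In all, 15 members passed in at least 1 tissue. These counts include rgs5a, on which the family was selected. Without it 11 of 39 passed in epidermis (4 higher, 7 lower) and 9 of 39 in gill (5 higher, 4 lower). Apart from rgs5a, those called in both tissues were gnb2 and gng7, higher in mutants, and rgs13, rgs14a, gnai2b and gng12a, lower in mutants. The share of all genes passing in at least 1 tissue, or in both, is not given here. The count of 15 and this list are therefore not read as a result about the family as a whole. The median log2 change of the 40 tested members was -0.04 in epidermis and 0.26 in gill, and over all genes tested it was -0.27 and -0.03. Centring each library on its median gene moved the median of all genes to 0.91 in epidermis and 0.83 in gill, and then 9 members were higher and 4 lower in each tissue. The share of all genes that passed under that centring is not given here. These 2 counts therefore have no background and are not read as a result about the members.

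**Figure D2:**
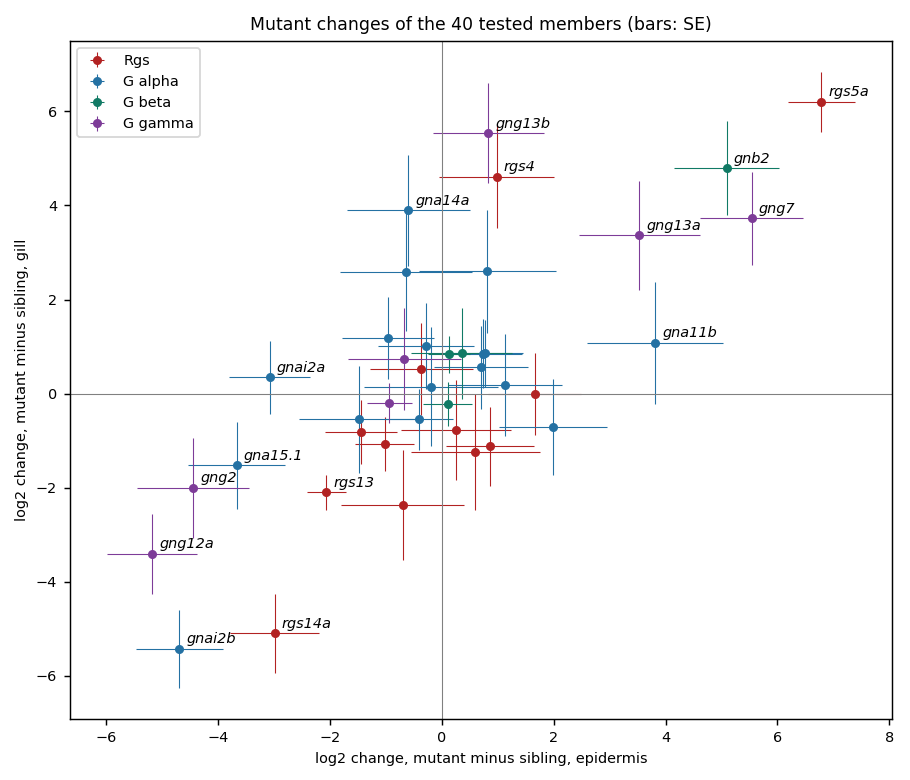
Mutant minus sibling log2 change in epidermis (horizontal) and gill (vertical) of the 40 tested members, on the log2(TPM + 1) scale with bars of 1 SE, coloured by class. Named points other than rgs5a, which is shown without a test, passed the threshold in at least 1 tissue; rgs5a stands at the upper right at 6.78 and 6.20, and gnai2b and rgs14a at the lower left.

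The Rgs genes were led by rgs13 in siblings. The level of rgs13 in sibling epidermis ran from 1261 to 4012 TPM with a median of 2229, and in mutant epidermis from 255 to 888 with a median of 727. In sibling gill it was 1756, 2633, 3102, 6159 and 5191 TPM, and in mutant gill 332 to 1296 with a median of 851. Every mutant library lay below every sibling library of its tissue. The sibling means ranked 34 in epidermis and 25 in gill among all genes. rgs13 fell in mutants by 2.06 on the log2 scale in epidermis (SE 0.35, limma adjusted p = 6.32e-05) and fell by 2.10 in gill (SE 0.37, adjusted p = 0.000287). By mean level rgs13 still ranked 141 and 130 in mutant epidermis and gill. With each library centred on its median gene, the fall in epidermis was smaller and no longer passed (log2 change -0.88, limma adjusted p = 0.0890).

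The level of rgs5a went the other way. Sibling epidermis held 6.26 to 129 TPM of rgs5a with a median of 10.6, and mutant epidermis 185 to 4627 with a median of 3134. Sibling gill held 18.2, 12.6, 16.4, 11.6 and 8.66 TPM, and mutant gill 588 to 1611 with a median of 1049. No mutant library came down to the highest sibling library in its tissue. Means were 31.5 ± 45.1 (15.2 without sibling epidermis 1) and 2765 ± 1569 TPM in epidermis, and 13.5 ± 3.82 and 1084 ± 336 TPM in gill, which moved rgs5a from rank 2992 to rank 20 and from rank 6140 to rank 93 among all genes. The fitted log2 differences were 6.78 (SE 0.60) and 6.20 (SE 0.64). The lowest mutant value, 185 TPM, belonged to mutant epidermis 7, and the next lowest was 1292. That library also had the lowest neuroendocrine and sensory sum of the mutant epidermis libraries (642 TPM against 3832 to 8467 in the others). Its myeloid sum was the highest of the group (3139 TPM), but 3088.5 TPM of it was cd74a. The myeloid sum without cd74a was highest, at 202 TPM, in another mutant epidermis library. The highest sibling value, 129 TPM, belonged to sibling epidermis 1, which had the highest neuroendocrine and sensory sum of its group (236 TPM). In mutant gill the order differed. Mutant gill 1, with the lowest rgs5a (588 TPM), had a sum of 5454 TPM, and mutant gill 5, with the lowest sum (2487 TPM), had 994 TPM of rgs5a. Whether rgs5a follows that sum was not tested. The pericyte marker pdgfrb was at most 1.25 TPM in any library, and kcnj8, tagln and cnn1b were listed at 0 throughout. The whole list of 11 pericyte and smooth muscle markers summed to 0.101 to 15.8 TPM in mutant epidermis and to 1.29 to 1408 in mutant gill, where 1346 TPM of the highest sum was ndufa4l2a in mutant gill 6. That library had the highest rgs5a and rgs4 of its group and also stood apart in endothelial (82.5 TPM) and thrombocyte (107 TPM) marker sums. Without it the mutant gill mean was 1009 TPM for rgs5a and 175 TPM for rgs4.

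The share of Rgs transcripts held by these genes was read within each library. Because the sum includes rgs5a, on which the family was selected, a higher rgs5a by itself lowers the share of rgs13. The shares are therefore a description. rgs13 made up 93.3% ± 3.38 of the summed TPM of all Rgs genes in sibling epidermis and 25.1% ± 26.1 in mutant epidermis (SD, n = 7 each), and 92.4% ± 6.24 in sibling gill (n = 5) and 37.5% ± 11.5 in mutant gill (n = 8). rgs5a made up 1.30% ± 2.02 and 69.2% ± 25.5 in epidermis, and 0.427% ± 0.280 and 47.3% ± 7.73 in gill. The summed Rgs level itself overlapped between genotypes, at 2727 ± 1183 and 3581 ± 1502 TPM in sibling and mutant epidermis and 4010 ± 1795 and 2289 ± 564 in sibling and mutant gill. The R4 family, small Rgs proteins with little beyond the RGS domain, held 96.6% to 98.2% of Rgs TPM as group means. rgs5a exceeded rgs13 in none of the sibling libraries, in 6 of 7 mutant epidermis libraries and in 6 of 8 mutant gill libraries. The exceptions were mutant epidermis 7, where rgs13 was 80.4% of Rgs TPM, mutant gill 2, where it was 49.8%, and mutant gill 5, where it was 53.3%.

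rgs4, another R4 member, was higher in mutant gill. It stood at 0.345, 21.6, 10.7, 0.656 and 40.7 TPM in sibling gill, and at 113 to 349 with a median of 183 in mutant gill, without overlap. The rise was 4.61 on the log2 scale (SE 1.09, limma adjusted p = 0.00647). In epidermis, rgs4 spanned 1.06 to 189.9 TPM in siblings and 2.03 to 165 in mutants, and the difference of 0.98 (SE 1.02) had a limma adjusted p of 0.613. The difference between the tissues was tested and did not pass (3.63, SE 1.49, limma adjusted p = 0.397). In the zebrafish annotation of RefSeq, rgs4, rgs5a, rgs16 and rgs8 follow each other with no other protein-coding gene between. rgs16 was listed at 0 in every library, and rgs8 was among the genes below the limit for testing.

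rgs14a, an Rgs gene of the R12 family whose mammalian relative RGS14 also binds inactive G alpha i, fell in both tissues. Its values in sibling epidermis ran from 0.214 to 42.4 TPM with a median of 19.7, and in mutant epidermis from 0 to 0.369. In sibling gill it was 42.7, 15.4, 82.6, 60.1 and 58.6 TPM, and in mutant gill 0 to 0.912. The groups were apart in gill and overlapped only at the low end in epidermis, where 1 sibling library stood at 0.214 TPM. The log2 change was -2.98 in epidermis (SE 0.79, limma adjusted p = 0.0088) and -5.10 in gill (SE 0.84, adjusted p = 0.000105). The epidermis call was lost with detected genes as a covariate and with centring on the median gene (in the latter log2 change -1.80, limma adjusted p = 0.116).

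Among the other Rgs genes of appreciable level, rgs3a and rgs12b did not pass in either tissue. rgs3a ran from 0.177 to 37.3 TPM in sibling epidermis and 0 to 90.0 in mutant epidermis, and was 82.0, 45.7, 91.7, 61.1 and 57.3 in sibling gill against 0.384 to 258 in mutant gill (log2 change -2.37, SE 1.17, limma adjusted p = 0.266 in gill). rgs12b was 12.6 to 35.1 TPM in sibling epidermis and 17.0 to 143 in mutant epidermis (0.86, SE 0.78, limma adjusted p = 0.551). rgs5b, the other zebrafish copy of the RGS5 gene, was held by single libraries: 217 TPM in sibling gill 1 and 353 in mutant gill 3, with no other library above 1.83 TPM. Both libraries had the highest ionocyte sum of their group (669 and 3948 TPM). Mutant gill 2, with the next highest sum of its group (1549 TPM), held 0.763 TPM of rgs5b. Whether rgs5b follows that sum was not tested.

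**Figure D3:**
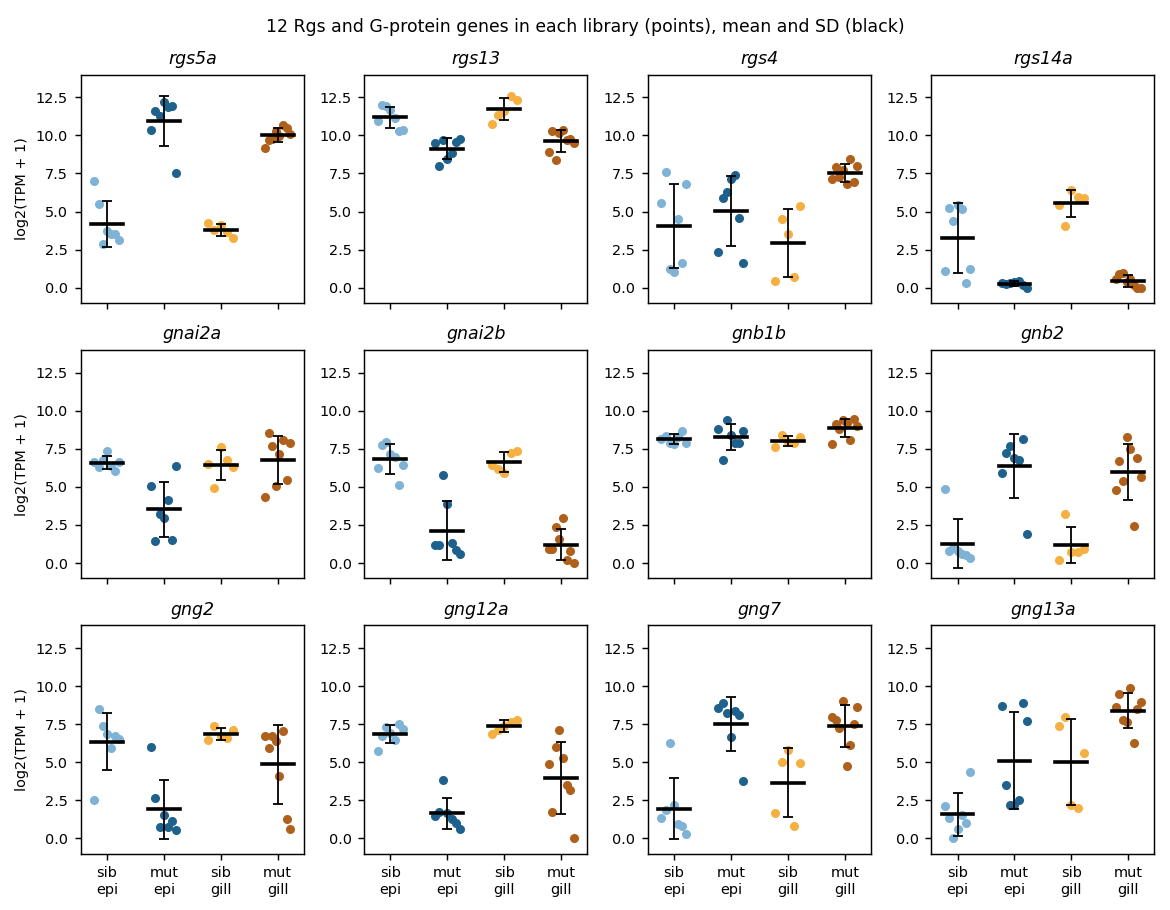
Level of 12 members in each library, as log2(TPM + 1), with the mean and SD in black, in sibling and mutant (sib, mut) epidermis (epi) and gill. rgs5a, gnb2 and gng7 are higher in mutants, rgs13, rgs14a, gnai2b and gng12a are lower, and gnb1b passed the test in neither tissue.

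Among the G alpha genes, the inhibitory subunit gnai2b fell in both tissues. It ran from 33.8 to 248 TPM in sibling epidermis with a median of 126, and from 0.544 to 54.0 in mutant epidermis with a median of 1.32. In sibling gill it was 87.8, 72.4, 60.3, 149.7 and 163 TPM, and in mutant gill 0 to 6.79 with a median of 0.914. The groups did not overlap in gill, while in epidermis 1 mutant library, mutant epidermis 3, lay within the sibling range at 54.0 TPM. The change was -4.69 in epidermis (SE 0.78, limma adjusted p = 4.38e-05) and -5.42 in gill (SE 0.83, adjusted p = 3.09e-05). Its close copy gnai2a fell in epidermis, from a median of 98.9 TPM (66.5 to 159.8) to 8.21 (1.70 to 81.6), a change of -3.07 (SE 0.73, limma adjusted p = 0.00336). Of the mutant epidermis libraries, number 7 at 81.6 TPM lay within the sibling range. In gill, gnai2a was 88.0, 29.7, 197, 110.3 and 77.1 TPM in siblings and 19.0 to 366 in mutants, with a change of 0.35 (SE 0.78, adjusted p = 0.86). The difference in the mutant effect between tissues was 3.42 (SE 1.07, limma adjusted p = 0.212) and did not pass. With median centring the epidermis call of gnai2a was lost (-1.89, limma adjusted p = 0.0726). Reads of such copies could be split between them, since how shared reads were counted is not stated.

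The other abundant G alpha i/o genes, gnai1 and the neuronal-type gnao1a, passed in neither tissue. gnai1 was 23.5 to 202 TPM in sibling epidermis and 5.32 to 446 in mutant epidermis (0.74, SE 0.69, limma adjusted p = 0.56), and gnao1a was 29.1 to 136 and 14.9 to 152 (-0.41, SE 0.62, adjusted p = 0.751). In gill gnai1 was 66.6, 151, 35.6, 109 and 96.8 TPM in siblings and 37.0 to 328 in mutants, with an adjusted p of 0.574 in limma. As a share of all G alpha TPM, the i/o/t genes averaged 69.0% ± 9.53 in sibling and 55.6% ± 15.4 in mutant epidermis, and 64.8% ± 12.01 and 44.1% ± 16.0 in gill.

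The G alpha q/11 genes, the class that works through phospholipase C, moved in different directions. gna15.1, named for a mammalian subunit that couples to many kinds of receptor, ran from 5.36 to 44.8 TPM in sibling epidermis and from 0 to 0.698 in mutant epidermis, without overlap (-3.67, SE 0.87, limma adjusted p = 0.0033). In gill it was 0.237, 0.139, 14.3, 36.3 and 20.2 TPM in siblings and 0 to 24.1 in mutants, and the change of -1.52 (SE 0.92) had an adjusted p of 0.39. gna11b rose in epidermis, from a median of 0.343 TPM (0 to 19.0) to 70.2 (1.32 to 128), by 3.81 (SE 1.21, limma adjusted p = 0.0323). The ranges of gna11b overlapped through sibling epidermis 1, the library at 19.0 TPM. That call was lost in 10 of the fits that leave out 1 library (adjusted p 0.0531 to 0.0759). These left out sibling epidermis 2, 3, 4, 5, 6 or 7 or mutant epidermis 1, 2, 5 or 6. In gill gna11b was 0.382 to 52.9 TPM in siblings and 0.397 to 165 in mutants (1.08, SE 1.30, limma adjusted p = 0.71). gna14a rose in gill, from 0.827, 0, 0, 13.4 and 5.97 TPM in siblings to 2.90 to 188 in mutants (3.89, SE 1.18, limma adjusted p = 0.0404), and was lost without sibling gill 1, 2 or 3 or mutant gill 1, 2, 4, 6, 7 or 8 (adjusted p 0.0515 to 0.119). The paralogue gna14 was 0.352, 82.5, 0.867, 8.32 and 56.2 TPM in sibling gill and 0.446 to 267 in mutant gill, with an adjusted p of 0.276. The q/11 share of G alpha TPM averaged 10.01% ± 6.05 and 20.7% ± 10.9 in sibling and mutant epidermis and 9.07% ± 7.59 and 26.4% ± 15.2 in gill. The stimulatory gene gnas did not pass in either tissue (1.99, SE 0.96, limma adjusted p = 0.19 in epidermis).

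Of the G beta genes, gnb2 was the only one called, and it was higher in mutants in both tissues. In sibling epidermis it was 0.285 to 28.7 TPM with a median of 0.712, and in mutant epidermis 2.68 to 289 with a median of 119.7. In sibling gill it was 0.149, 8.48, 0.688, 0.660 and 0.933 TPM, and in mutant gill 4.43 to 309.7 with a median of 77.6. The genotypes overlapped through single libraries: sibling epidermis 1 stood at 28.7 TPM above mutant epidermis 7 at 2.68, and sibling gill 2 at 8.48 above the lowest mutant gill library at 4.43. The rise was 5.09 on the log2 scale in epidermis (SE 0.94, limma adjusted p = 0.000191) and 4.79 in gill (SE 1.001, adjusted p = 0.00199). The abundant G beta genes did not pass: gnb1b was 220.3 to 411 and 108 to 674 TPM in sibling and mutant epidermis (0.13, SE 0.37, limma adjusted p = 0.883) and gnb1a was 63.0 to 248 and 57.2 to 429 (0.11, SE 0.44, adjusted p = 0.921). In sibling and mutant gill gnb1b was 198 to 333 and 227 to 720 TPM (0.83, SE 0.39, limma adjusted p = 0.24). There gnb1a was 145 to 266 and 86.2 to 283 (-0.23, SE 0.47, adjusted p = 0.845). gnb2 made up 0.938% of G beta TPM in sibling epidermis as a mean and 19.4% ± 13.1 in mutant epidermis, and 0.379% and 10.7% ± 7.48 in gill. The summed G beta level was 470 ± 76.9 and 699 ± 202 TPM in sibling and mutant epidermis and 488 ± 88.7 and 837 ± 295 in gill. gnb4b, less abundant, ran from 0.826 to 22.1 TPM in sibling epidermis and 0.514 to 34.5 in mutant epidermis. gnb5a, whose mammalian relative pairs with R7 Rgs proteins, was below the limit for testing: 36.1 TPM in mutant epidermis 6, 42.9, 42.6 and 28.8 in mutant gill 3, 4 and 6, and at most 0.247 in every other library.

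Of the G gamma genes, 4 of 7 tested passed in epidermis, where gng7 and gng13a were higher and gng12a and gng2 lower, and 3 of 7 passed in gill, where gng7 and gng13b were higher and gng12a was lower. Over all genes tested, 12.8% passed in epidermis and 6.21% in gill. The level of gng12a was 53.7 to 185 TPM in sibling epidermis (median 118) and 0.518 to 13.03 in mutant epidermis (median 1.83), without overlap. In gill it was 114, 137, 169, 203 and 223 TPM in siblings and 0 to 137 in mutants (median 19.7). Only the upper end of the mutant gill range, 137 TPM in mutant gill 4, came into that of siblings. gng12a fell by 5.18 in epidermis (SE 0.80, limma adjusted p = 1.45e-05) and by 3.40 in gill (SE 0.85, adjusted p = 0.0107). gng2, another G gamma gene, was 4.70 to 357 TPM in sibling epidermis and 0.466 to 62.4 in mutant epidermis, a change of -4.45 (SE 0.995, limma adjusted p = 0.00191). The overlap came from sibling epidermis 1 at 4.70 and mutant epidermis 1 at 62.4 TPM. In gill gng2 was 88.9, 168, 104, 95.5 and 139.8 TPM in siblings and 0.566 to 133 in mutants, and the change of -2.001 (SE 1.06) had an adjusted p of 0.306.

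gng7 rose in both tissues. It ran from 0.252 to 77.5 TPM in sibling epidermis with a median of 1.503, and from 12.99 to 465.6 in mutant epidermis with a median of 296. In gill, gng7 was 2.17, 32.2, 54.7, 0.750 and 30.7 TPM in siblings and 26.7 to 515 with a median of 198 in mutants. The ranges overlapped in both tissues, in epidermis through sibling epidermis 3 at 77.5 and mutant epidermis 7 at 12.99 TPM. The rise was 5.54 in epidermis (SE 0.92, limma adjusted p = 4.70e-05) and 3.72 in gill (SE 0.98, adjusted p = 0.0161), the latter lost without sibling gill 1 or sibling gill 4 (adjusted p 0.0616 to 0.0942). Among the sibling gill libraries, library 4, at 0.750 TPM of gng7, had the lowest neuroendocrine and sensory sum (35.2 TPM). Library 1, at 2.17 TPM of gng7, had the highest (859 TPM). Mutant epidermis 7 had both the lowest gng7 and the lowest such sum (642 TPM) of its group. Whether gng7 follows that sum was not tested.

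Both gng13 genes are named for the G gamma subunit known in mammals from taste cells and olfactory neurons. gng13a was 0 to 19.7 TPM in sibling epidermis and 3.53 to 477 in mutant epidermis, a change of 3.53 (SE 1.08, limma adjusted p = 0.025), lost without sibling epidermis 3 or mutant epidermis 1, 6 or 7 (adjusted p 0.0548 to 0.0754). The mutant epidermis libraries fell apart, with 4 up to 10.23 TPM and 3 from 212 TPM upward. In gill it was 164, 254, 3.66, 3.01 and 47.2 TPM in siblings and 76.4 to 945 with a median of 379 in mutants, and the change of 3.36 (SE 1.15) had an adjusted p of 0.0773. gng13b was 0.546, 0, 0, 0 and 2.23 TPM in sibling gill and 2.31 to 216 in mutant gill, without overlap, a rise of 5.54 (SE 1.06, limma adjusted p = 0.00077). In epidermis, gng13b was above 1 TPM in 1 sibling library, at 57.5 TPM, and ran from 0.201 to 52.3 TPM in mutants (0.84, SE 0.998, adjusted p = 0.67). Of the 5 taste and chemosensory markers in the table, pou2f3 averaged 635 and 454 TPM in sibling and mutant epidermis and 434 and 451 in sibling and mutant gill. The other 4 summed to 19.5 and 9.72 TPM in epidermis and to 21.9 and 3.37 in gill, and trpm5, a channel of taste cells, averaged 20.6 TPM in sibling gill and 0.249 in mutant gill. gng5, the most abundant G gamma gene in siblings, did not pass in either tissue (-0.94, SE 0.40, limma adjusted p = 0.133 in epidermis, and -0.19, SE 0.43, adjusted p = 0.858 in gill).

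**Figure D4:**
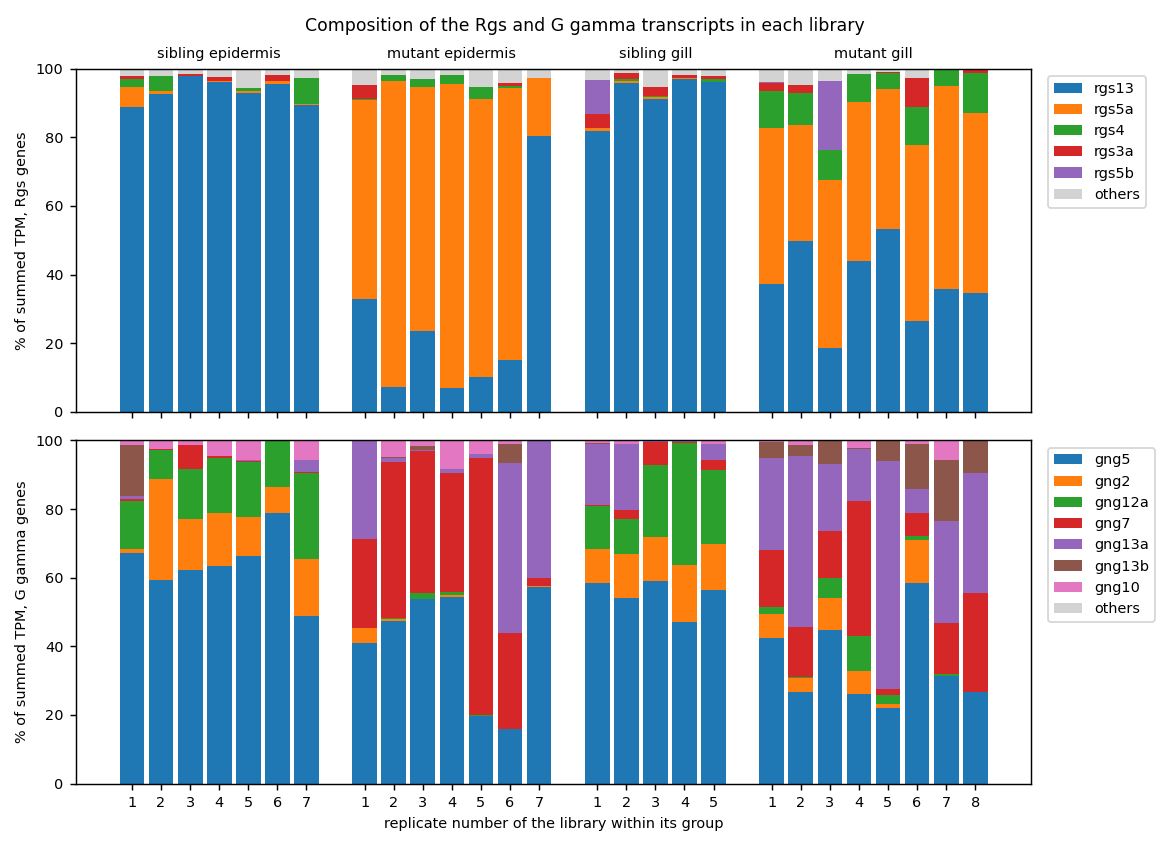
Composition of the Rgs (top) and G gamma (bottom) transcripts of each library, as percent of the summed TPM of the class, with the replicate number of the library under each bar. rgs13 is the main Rgs gene in every sibling library and rgs5a in 6 of 7 mutant epidermis and 6 of 8 mutant gill libraries. As group means, gng2 and gng12a hold a larger share in siblings and gng7 and gng13a in mutants. By library, the share of gng13a overlaps between genotypes in both tissues.

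As a share of G gamma TPM, gng7 averaged 1.19% ± 2.55 and 36.1% ± 22.1 in sibling and mutant epidermis and 2.51% ± 2.69 and 17.0% ± 11.8 in gill. gng12a averaged 15.4% and 0.495% in epidermis and 20.1% and 2.82% in gill. gng13a plus gng7, as a percent of the sum of these with gng2 and gng12a, was 0.609% to 19.1% in sibling and 92.6% to 99.7% in mutant epidermis, and 1.24% to 48.4% and 50.5% to 99.9% in gill. This grouping was made after the values were seen and is a description. The summed G gamma level overlapped in epidermis, at 848 ± 380 and 776 ± 406 TPM, and averaged 929 ± 274 and 1308 ± 161 in sibling and mutant gill.

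The tissues were then compared within each genotype. No member differed between sibling gill and sibling epidermis in limma (0 of 40). Of all genes, 0.958% passed, 0.631% higher and 0.327% lower in gill. An unadjusted p under 0.05 was found there for 4 of the 40 members and for 1121 of all 13465 genes tested. In mutants 2 of 40 were higher in gill, where 4.23% of all genes passed (3.4% higher and 0.824% lower): gnai2a by 3.25 (SE 0.71, limma adjusted p = 0.00512) and gng13b by 4.10 (SE 0.97, adjusted p = 0.0102). With the libraries of the contrast alone the differences were the same, but neither passed (limma adjusted p = 0.0837 and 0.0538). Neither passed with detected genes as a covariate (0.0903 and 0.0741) or without the 3 libraries with the fewest genes (0.0552 and 0.0633). No member passed the test of a difference in the mutant effect between the tissues (0 of 40). Of all genes, 0.0594% passed that test, 0.0371% higher and 0.0223% lower in gill. In it, 4 of the 40 members and 1315 of all 13465 genes tested had an unadjusted p under 0.05.

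The pathway beyond the subunits was read in 11 lists, which hold 87 genes of the table, 45 of them tested. Leaving out rasd1, known beforehand for its change, 3 of 44 were higher and 9 lower in mutant epidermis, where 4.13% and 8.69% of all genes passed, and 1 was higher and 3 lower in mutant gill, where 2.34% and 3.87% passed. The adenylyl cyclases, which make cyclic AMP, had 2 higher and 1 lower of 4 tested in epidermis. In gill none of the 4 was called in limma (2 with an unadjusted p under 0.05). Between mutants and siblings, 3332 of all 13465 genes tested had an unadjusted p under 0.05 in epidermis and 2537 in gill. adcy5 went from 0.109 ± 0.0677 to 29.2 ± 23.0 TPM in epidermis (3.80 on the log2 scale, limma adjusted p = 0.00297) and adcy7 from 10.3 ± 12.1 to 0.134 ± 0.192 (-2.81, adjusted p = 0.00543). The phosphodiesterases, which break cyclic nucleotides down, had 1 higher and 3 lower of 12 tested in epidermis and 1 of each in gill. pde4ca fell in both tissues, from 12.4 ± 6.69 to 0.161 ± 0.129 TPM in epidermis (-3.34, limma adjusted p = 0.000357) and from 9.06 ± 5.72 to 1.17 ± 2.02 in gill (-2.43, adjusted p = 0.0269). pde4d rose in gill, from 0.0865 ± 0.0841 to 33.6 ± 23.1 TPM (4.60, limma adjusted p = 0.000272).

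Of 8 subunit genes of protein kinase A, 2 were lower in mutant epidermis, where 8.69% of all genes passed as lower. They were led by prkar2aa, a regulatory subunit, at 80.5 ± 25.2 TPM in siblings and 1.29 ± 1.21 in mutants (-5.21, limma adjusted p = 6.74e-06). In gill none of the 8 was called in limma (2 with an unadjusted p under 0.05), and prkar2aa stood at 45.0 ± 30.1 TPM in siblings and 52.5 ± 67.4 in mutants. Its mutant gill values ran from 2.32 to 194 TPM. Between mutant tissues prkar2aa was higher in gill (3.52, limma adjusted p = 0.00404). None of the 45 tested pathway genes passed the test of a difference in the mutant effect between the tissues. rasd1, a small G protein whose mammalian relative is known to activate G alpha i without a receptor, was at 24.2 ± 40.1 TPM in sibling and 1039 ± 488 in mutant epidermis and at 67.1 ± 134 and 1067 ± 546 in gill. Like rgs5a, it was known beforehand for this change, and its fitted log2 differences of 6.10 and 5.76 are a description. A relative, rasd4, fell in gill from 67.3 ± 50.6 to 0.292 ± 0.283 TPM (-5.22, limma adjusted p = 0.000108). The phospholipase C beta, G-protein-coupled receptor kinase and inositol trisphosphate receptor genes had none called of 1, 4 and 4 tested in either tissue in limma. At an unadjusted p under 0.05 stood 1 inositol trisphosphate receptor gene in epidermis and 1 receptor kinase gene in gill. The arrestins and the Ric8 and Gpsm regulators had 1 gene each lower in mutant epidermis and none called in gill (0 and 1 with an unadjusted p under 0.05 in gill), and no GIRK channel gene reached the limit for testing.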

How the data were processed

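RNA of 30 sorted cells per library was sequenced in 27 libraries. The authors deposited 1 table of TPM values (length-scaled transcript shares of a library) with 1 column per library. Per the submitters' processing notes, STAR, featureCounts and DESeq2 were named and the builds were GRCz11 and danRer11. What each tool did, the strand setting and the handling of shared reads are not stated. TPM keeps no read depth, so no counting interval can be given, and paralogues such as gnai2a and gnai2b may share reads.

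From the deposited values, genes at 1 TPM or more in at least 5 libraries (13465) were tested on log2(TPM + 1), with a pseudocount of 1, in limma 3.58.1 (R 4.3.3), with a variance trend and 1 fit of all 27 libraries (23 residual degrees of freedom). P-values were Benjamini-Hochberg adjusted over all genes of a contrast, with a threshold of 0.05. Fold changes on this scale understate those of low genes. The tests were checked on simulated data with normally distributed log2 values and the same spread of a gene in all groups. That check does not cover genes present in only some libraries of a group.

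Members and lists were chosen with earlier results of these data known. Members named with values passed in any contrast or were among the top 5 of their class by mean level, with paralogues and members held by 1 library added; of each pathway list up to 3 called genes per contrast could be named, and the genes of 1 list are not reported here. The reference names held all 67 identifiers, 50 under the same symbol. Gene neighbours are from RefSeq GRCz12tu and concern gene order only. Alternatives were other pseudocounts, filters, scalings and designs, and leaving out each library. Figures were drawn with matplotlib 3.10.9.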

Additional observations from a re-analysis of the deposited data

Results flagged for a closer look

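In 100 groups of libraries, 17 values stood far from the others of their group by Dixon's criterion on log2(TPM + 1). Chance alone meets it in about 1 of 20 groups only where values are normally distributed, which was not tested here. A group with 1 library above 0 and all others at 0 always meets it. The number 17 is therefore a description and is not set against that rate. Sibling epidermis 1 held 4 of them: gna11b at 19.0 TPM (0 to 0.371 in the others), gnb2 at 28.7 (0.285 to 0.980), gng13b at 57.5 (0 to 0.374) and gng2 low at 4.70 (61.5 to 357). Mutant epidermis 7 was low in rgs5a, at 185 TPM (1292 to 4627 in the others), and in gnb2, at 2.68 (60.5 to 289). Other mutant epidermis libraries stood apart in 1 gene each: gng2 at 62.4 TPM in library 1 (0.466 to 5.44), gng12a at 13.03 in library 3 (0.518 to 2.37), gnai1 low at 5.32 in library 4 (94.3 to 446), gna15.1 at 0.698 in library 5 (0 to 0.141) and gnb5a at 36.1 in library 6 (0 to 0.247). Sibling epidermis 3 stood high in gng7 at 77.5 TPM (0.252 to 3.51). In gill, gnb2 was 8.48 TPM in sibling gill 2 (0.149 to 0.933), gng13b was low at 2.31 in mutant gill 4 (46.5 to 216) and gna14 was low at 0.446 in mutant gill 8 (41.1 to 267). The remaining values were at trace level: gnb5a at 0.201 TPM in sibling epidermis 6 and 0.197 in sibling gill 5.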

How the results depend on the processing

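No call of a member changed direction under any alternative. Over the other settings, members called ranged from 10 to 13 in epidermis and from 9 to 13 in gill, and none was called between sibling tissues or for the difference between tissues. Leaving out 1 library gave 10 to 12 in epidermis, 8 to 10 in gill and 2 to 5 for gill against epidermis in mutants, where 2 were called. That last count became 4 with a pseudocount of 0.1, 4 with quantile normalization (2 higher and 2 lower), 0 with the libraries of the contrast alone, 0 with detected genes as a covariate and 6 with the replicate number as a block; median centring gave 1 higher and 2 lower. The cause was not tested. The replicate block gave 12 calls in epidermis and 9 in gill. The share of all genes that passed under each of these settings is not given here. These counts therefore have no background and are not read as a result about the members. After the group mean of each gene was subtracted, the deviations of same-numbered libraries correlated at -0.0308 to 0.0776. The main fit did not treat the numbers as pairs. Whether the numbers mark pairs was not settled here. As a hint from the data, the best match was the own number in 7 of 7 pairs between genotypes in epidermis and 7 of 7 between mutant tissues, but in 2 of 5 between genotypes in gill and 3 of 5 between sibling tissues. Of the calls between genotypes, outside median centring, gna14a in gill was lost in 6 alternatives, gng13a in epidermis in 5 and gna11b in epidermis in 3. Also lost were gng12a in gill with the libraries of the contrast alone (limma adjusted p = 0.0566) and rgs14a in epidermis with detected genes as a covariate (0.0602). TPM records no depth, so how far low values are limited by it is unknown.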
